A study of Mus musculus with 12 samples.

Results

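Integrins and laminins are the receptors and ligands through which cells hold on to a basement membrane. The 35 genes described here, 25 integrin and 10 laminin subunit genes, were chosen by name, as members of these families, from 40039 loci in the deposited tables. A locus of its own was found for 31 of them, 22 integrins and 9 laminins, and all 31 passed the filter on low counts. The other 4 lay in loci that the deposited transcript models merge with neighbouring genes: Itga2b, Itga10, Itgb7 and Lamb2. Counts of merged loci cannot be assigned to 1 gene, so these 4 are named only and are given no values.

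RNA was measured in 12 libraries of mouse C57BL/6J embryonic stem cells, 3 libraries in each of 4 groups. These were Notch1-/- embryoid bodies at day 6, WT embryoid bodies at day 6, Notch1-/- cells at day 0 and WT cells at day 0. Undifferentiated cells were kept with LIF at 1000 U/ml, either on a feeder layer of mouse embryonic fibroblasts or on gelatin, and the labels do not say which library had which. Differentiation towards the cardiac lineage was started by hanging drops of 1000 cells, and embryoid bodies, which are aggregates of many early cell types, were collected at day 6. The study's design text calls the replicates biological, but nothing says whether they were separate cultures or how many clones of the Notch1-/- line were used, so p-values measure the spread between these libraries.

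An integrin is a pair of 1 alpha and 1 beta subunit that spans the plasma membrane, and the alpha subunit largely sets which ligand is bound. A laminin is a trimer of 1 alpha, 1 beta and 1 gamma chain that assembles into the sheet of the basement membrane, where nidogens, type IV collagen and perlecan join it. In early mouse embryos and embryoid bodies, laminin made by primitive endoderm underlies the epiblast, whose cells contact it through beta 1 integrins such as alpha 6 beta 1.

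The libraries held between 100637179 and 134662426 counts each. Notch1, the targeted gene, had 6.80, 4.90 and 4.95 CPM (counts scaled by TMM library size) in Notch1-/- bodies, against 38.0, 30.8 and 31.1 CPM in WT bodies at day 6. At day 0 it had 3.80, 3.87 and 4.59 CPM in Notch1-/- cells, against 61.6, 24.7 and 34.0 CPM in WT cells. The summed CPM of 6 of 8 pluripotency markers was 373 to 568 in Notch1-/- bodies, against 253 to 334 in WT bodies. Day 0 sums were 1153 to 2187 in Notch1-/- cells, against 1494 to 2013 in WT cells. Summed CPM of 16 of 18 fibroblast markers, which embryonic mesenchyme shares with feeder cells, was 193 to 290 in Notch1-/- bodies, against 1174 to 1653 in WT bodies. At day 0 it was 462, 1235 and 1893 in Notch1-/- cells, against 1507, 887 and 3022 in WT cells. In bulk RNA, fewer cells of a type and less RNA per cell cannot be told apart.

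Counts were compared by edgeR's quasi-likelihood test, with p-values adjusted after Benjamini and Hochberg over 23991 loci, and a gene was called at an adjusted p under 0.05. From day 0 to day 6 of Notch1-/- differentiation, 3 of the 31 genes were called higher and 16 lower, 61.3% in all, beside 35.9% of all loci called (17.2% higher and 18.7% lower). In WT, 6 were called higher and 8 lower, 45.2% in all, beside 43.1% of all loci (18.4% higher and 24.7% lower), so the WT share lay near the background. Between genotypes at day 6, 4 were called higher and 11 lower in Notch1-/- bodies, 48.4% in all, beside 28.1% of all loci (13.7% higher and 14.4% lower). Without any 1 of the 6 day 6 libraries, the 11 became 5 to 7. At day 0, 3 were called higher and 1 lower in Notch1-/- cells, 12.9% in all, beside 9.56% of all loci (3.71% higher and 5.86% lower). The day 6 change itself differed between genotypes for 9 genes, 29.0% beside 11.3% of all loci (6.36% more positive and 4.92% more negative). It was more positive in Notch1-/- for Itga3 and Itga8, and more negative for Itga2, Itga4, Itga7, Lama1, Lama2, Lama4 and Lamb1. The median log2 change of the 31 genes was -0.77 over Notch1-/- differentiation and -0.44 between genotypes at day 6, where the medians of all loci were -0.02 and 0.01. These contrasts share libraries and are not independent of each other.

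**Figure D1:**
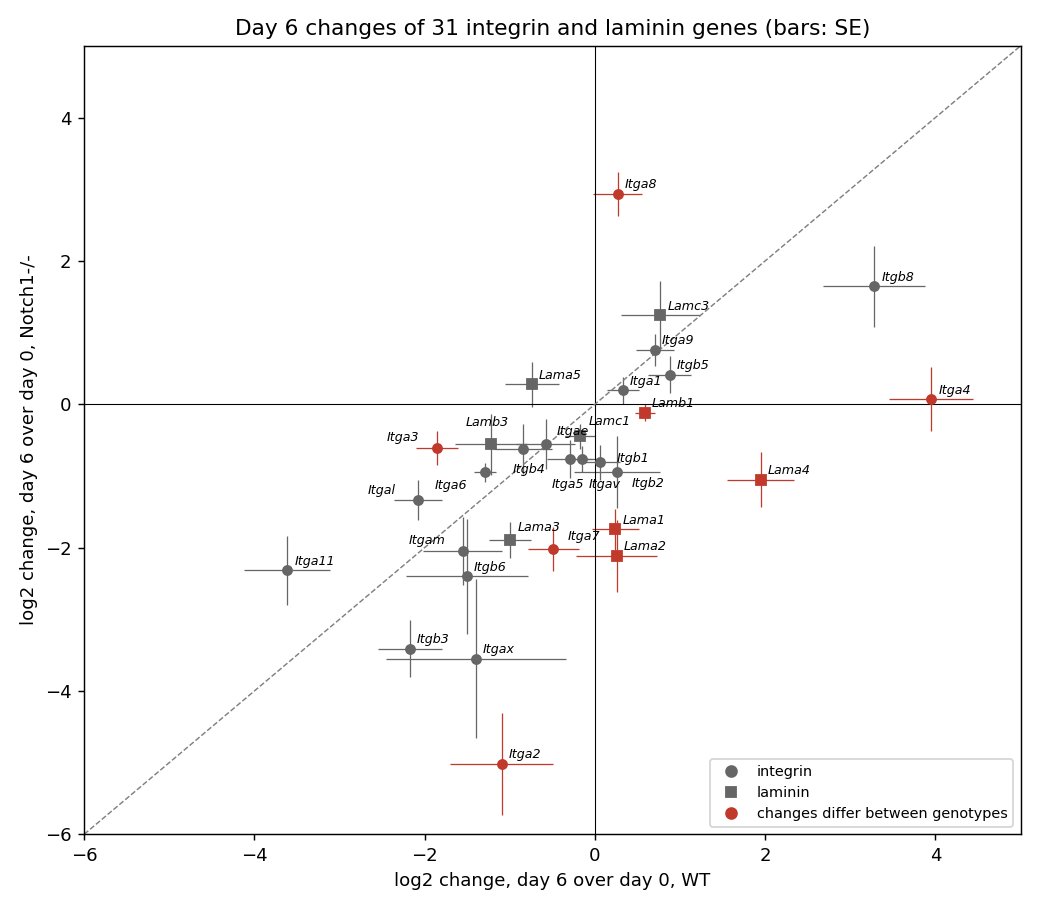
Log2 change from day 0 to day 6 in Notch1-/- (vertical axis) against that in WT (horizontal axis) for the 31 genes, each with bars of 1 standard error. Circles are integrins, squares laminins, and red marks the 9 genes whose changes differed between genotypes. Itga8 lies far above the dashed line of equal change, and Itga4, Lama4 and Itga2 lie far below it.

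Promoters are shown for Itga4, Itga8 and Lamb1 as examples of genes whose day 6 changes differed between genotypes. They are 2 integrins whose differences had opposite signs, and the laminin chain with the smallest standard error of that difference. The sequences are RefSeq's, on build GRCm38.p6, which is not the mm9 build of the deposited files, and each holds 300 bases around the gene start, on the coding strand. Entries were available for 23 of the 35 genes. Capitals mark matches, on either strand, to the RBPJ core TGGGAA, the word bound by the DNA partner of Notch, and to the GC box GGGCGG. Of 32851 promoters of this length, 25.6% hold the RBPJ core and 35.7% the GC box. The word AGATAA, read by GATA factors, is held by 11.2% and the TATA box word TATAAA by 13.6%, and neither occurs on either strand of these 3 windows. A match is a description of letters and no evidence of binding. The Itga4 window, chr2:79255176-79255475 on the plus strand, holds 10 CpG dinucleotides and 1 GC box. The Itga8 window, chr2:12301895-12302194 on the minus strand, holds 23 CpG dinucleotides and none of the 4 words. The Lamb1 window, chr12:31265043-31265342 on the plus strand, holds 18 CpG dinucleotides, 2 RBPJ cores and 2 GC boxes, where the median promoter holds 7 CpG dinucleotides.
Itga4: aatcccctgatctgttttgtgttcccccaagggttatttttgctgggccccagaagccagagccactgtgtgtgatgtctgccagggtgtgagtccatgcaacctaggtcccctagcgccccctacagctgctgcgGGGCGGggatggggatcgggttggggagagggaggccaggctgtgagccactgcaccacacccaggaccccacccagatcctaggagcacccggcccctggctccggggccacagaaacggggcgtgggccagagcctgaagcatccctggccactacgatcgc
Itga8: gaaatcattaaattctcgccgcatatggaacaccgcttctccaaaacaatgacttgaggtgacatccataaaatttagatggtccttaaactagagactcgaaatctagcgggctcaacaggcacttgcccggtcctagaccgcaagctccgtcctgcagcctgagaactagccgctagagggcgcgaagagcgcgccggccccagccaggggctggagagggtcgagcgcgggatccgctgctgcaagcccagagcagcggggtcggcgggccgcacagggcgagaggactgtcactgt
Lamb1: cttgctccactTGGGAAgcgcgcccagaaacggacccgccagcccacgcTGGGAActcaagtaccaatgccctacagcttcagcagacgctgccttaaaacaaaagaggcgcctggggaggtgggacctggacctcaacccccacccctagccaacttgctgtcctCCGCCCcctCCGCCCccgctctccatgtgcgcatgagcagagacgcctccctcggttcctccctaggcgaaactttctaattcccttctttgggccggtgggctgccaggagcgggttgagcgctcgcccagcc

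Among laminin receptors, Itga6, whose alpha 6 subunit forms the main laminin receptor of stem cells with beta 1, had higher counts in Notch1-/- than in WT at both days, while it fell with differentiation in both genotypes. At day 6 it had 179, 185 and 214 CPM in Notch1-/- bodies, against 109, 102 and 105 CPM in WT bodies. Its day 0 values were 399, 407 and 309 CPM in Notch1-/- cells, against 241, 283 and 248 CPM in WT cells. Every Notch1-/- library lay above every WT library of its day, and every day 6 library below every day 0 library. The log2 change from day 0 to day 6 was -0.95 ± 0.13 (SE) in Notch1-/- and -1.29 ± 0.13 in WT (adjusted p = 0.000201 and 1.75e-05). The genotype difference was 0.87 ± 0.13 at day 6 (adjusted p = 0.00046) and 0.53 ± 0.13 at day 0 (adjusted p = 0.0243). The day 0 call ended without Notch1-/- day 0 replicate 2, WT day 0 replicate 1 or WT day 0 replicate 3 (0.47 to 0.50, adjusted p of at least 0.0765). The pluripotency marker sum, given above, was higher in Notch1-/- bodies than in WT bodies without overlap, and overlapped between genotypes at day 0. Of the 6 pluripotency markers, 2 were called higher and 4 not called in Notch1-/- bodies. Summed CPM of 5 of 7 surface epithelium markers was 1017 to 1313 in Notch1-/- bodies, against 961 to 996 in WT bodies. At day 0 it was 1243 to 1441 in Notch1-/- cells, against 934 to 1122 in WT cells. That sum includes Cdh1, which averaged 695 ± 121 CPM in Notch1-/- bodies, against 265 ± 47 CPM in WT bodies. Of the 5 epithelium markers, 2 were called higher, 1 lower and 2 not called in Notch1-/- bodies. Of all loci, 13.7% were called higher and 14.4% lower there. The part of these cells in the Itga6 values was not tested. Itga6 was the only 1 of the 31 genes with a genotype call in the same direction at both days.

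Itga3, the alpha subunit of a receptor for laminins with the alpha 3 or alpha 5 chain, fell in WT differentiation. At day 6 it had 53.0, 44.2 and 78.7 CPM in Notch1-/- bodies, against 37.3, 33.5 and 34.4 CPM in WT bodies. Before differentiation it had 113, 67.6 and 87.9 CPM in Notch1-/- cells, against 93.6, 149.7 and 138 CPM in WT cells. The Notch1-/- bodies all lay above the WT bodies, and the day 0 groups overlapped. The log2 change over WT differentiation was -1.86 ± 0.25 (adjusted p = 0.000106), against -0.61 ± 0.24 over Notch1-/- differentiation (adjusted p = 0.0641). The difference of these changes was 1.25 ± 0.34 (adjusted p = 0.0333), and the genotype difference at day 6 was 0.74 ± 0.24 (adjusted p = 0.0363). The call on the difference of changes ended without Notch1-/- day 6 replicate 3, any WT day 6 library, Notch1-/- day 0 replicate 2 or 3, or WT day 0 replicate 2 or 3 (0.98 to 1.29, adjusted p 0.0558 to 0.0883). The genotype call at day 6 ended without Notch1-/- day 6 replicate 1 or 3 or any WT day 6 library (0.48 to 0.82, adjusted p 0.0521 to 0.180).

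Itga7, which encodes the laminin receptor subunit best known from muscle, moved the other way. It had 2.38, 2.94 and 2.19 CPM in Notch1-/- bodies, against 4.55, 5.19 and 9.57 CPM in WT bodies. In the day 0 libraries it had 11.4, 9.28 and 9.80 CPM in Notch1-/- cells, against 10.6, 6.04 and 10.4 CPM in WT cells. The Notch1-/- bodies were the lowest libraries of all. The log2 change over Notch1-/- differentiation was -2.02 ± 0.31 (adjusted p = 0.000415), against -0.49 ± 0.30 over WT differentiation (adjusted p = 0.210). The genotype difference at day 6 was -1.36 ± 0.31 (adjusted p = 0.00575), and the difference of the changes was -1.53 ± 0.43 (adjusted p = 0.0370). The call on the difference of changes ended without Notch1-/- day 6 replicate 1 or 3, WT day 6 replicate 2 or 3, Notch1-/- day 0 replicate 2 or 3, or WT day 0 replicate 3 (-1.67 to -1.13, adjusted p 0.0530 to 0.0938). Summed CPM of 7 of 9 cardiac and skeletal muscle markers was 27.5 to 34.0 in Notch1-/- bodies, against 12.4 to 13.3 in WT bodies, opposite to Itga7. Of 6 tested, 3 were called higher and 1 lower in Notch1-/- bodies, beside 13.7% and 14.4% of all loci. The part of muscle cells in the Itga7 values was not tested.

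Itgb1, the beta 1 subunit that pairs with most alpha subunits listed here, shares 55.8% of its exon length with an unnamed locus on the opposite strand, so its level is given by the authors' FPKM values. It had 70.4, 70.2 and 67.4 FPKM in Notch1-/- bodies, against 121, 129.9 and 125 FPKM in WT bodies. Day 0 libraries gave it 68.8, 129.9 and 170.5 FPKM in Notch1-/- cells, against 116, 120.3 and 136 FPKM in WT cells. The day 6 groups did not overlap, and the day 0 groups did. Notch1-/- replicate 1, the lowest day 0 library for Itgb1, also had the lowest fibroblast marker sum of those libraries. In WT cells replicate 1 was lowest for Itgb1, but replicate 2 for that sum. The part of these markers' cells in the Itgb1 values was not tested. In limma's test on log2(FPKM + 1), the genotype difference at day 6 was -0.85 ± 0.25 (adjusted p = 0.0253). The deposited counts gave -0.78 ± 0.24 in edgeR's test (adjusted p = 0.0278), a call that ended without any 1 of the 6 day 6 libraries (-0.82 to -0.73, adjusted p 0.0571 to 0.0885). Over Notch1-/- differentiation the counts gave -0.81 ± 0.24 (adjusted p = 0.0190), a call that ended without Notch1-/- day 6 replicate 1 or 3 or Notch1-/- day 0 replicate 2 or 3 (-0.80 to -0.59, adjusted p 0.0588 to 0.0870). Itgb4, the partner of alpha 6 in hemidesmosomes, was called in no comparison and had 10.1 to 16.1 CPM in Notch1-/- bodies and 10.9 to 14.0 CPM in WT bodies.

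Per length, Itgb1 had the highest mean FPKM of the 22 integrin genes in each group. It made up 73.8% ± 0.99 of the summed FPKM of the beta subunits in Notch1-/- bodies, against 80.6% ± 1.9 in WT bodies (SD, n = 3 each). Of the alpha subunits that can pair with beta 1, Itga6 took 45.2% ± 3.0 of the summed FPKM in Notch1-/- bodies, against 27.2% ± 0.83 in WT bodies. At day 0 it took 54.0% ± 5.9 in Notch1-/- cells, against 41.7% ± 3.3 in WT cells. Itga5 took 18.4% ± 3.7 in Notch1-/- bodies, against 29.3% ± 1.6 in WT bodies. Counts per kilobase of unshared exon length, a unit chosen after seeing the data that takes reads in shared exons as not counted, turned the order of the 2 genes round in Notch1-/- bodies: Itga6 took 25.9% ± 3.8 and Itga5 39.8% ± 5.4 there, against 13.1% ± 0.60 and 53.8% ± 2.0 in WT bodies. In that unit Itga6 took 32.8% ± 8.0 in Notch1-/- cells at day 0, against 23.1% ± 2.9 in WT cells, with overlapping ranges, and Itga5 took 42.8% ± 11 in Notch1-/- cells, against 47.0% ± 3.9 in WT cells. Which of the 2 was more abundant thus depended on the unit, while the Itga6 share was higher in Notch1-/- bodies in both units. The shares are descriptions and were not tested.

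Among receptors that read the RGD motif of fibronectin, vitronectin and related ligands, Itga8, whose alpha 8 subunit with beta 1 binds nephronectin, rose with differentiation in Notch1-/- and not by a called amount in WT. It had 50.5, 46.8 and 34.3 CPM in Notch1-/- bodies, against 8.84, 12.7 and 14.0 CPM in WT bodies. Undifferentiated cells had it at 3.31, 5.77 and 8.09 CPM in Notch1-/- cells, against 9.09, 10.7 and 9.81 CPM in WT cells. Notch1-/- libraries were thus the highest at day 6 and the lowest at day 0, with no overlap of genotypes at either day. The log2 change over Notch1-/- differentiation was 2.94 ± 0.31, a 7.67-fold rise (adjusted p = 3.27e-05), against 0.27 ± 0.29 over WT differentiation (adjusted p = 0.477). The difference of the changes was 2.67 ± 0.41 (adjusted p = 0.00162). The genotype difference was 1.89 ± 0.29 at day 6 (adjusted p = 0.000563) and -0.78 ± 0.29 at day 0 (adjusted p = 0.105). Its calls held under every alternative run.

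Itgb3, the beta subunit of the vitronectin receptor and of the platelet fibrinogen receptor, fell in both genotypes. It had 3.04, 3.25 and 4.23 CPM in Notch1-/- bodies, against 9.22, 9.16 and 8.04 CPM in WT bodies. At day 0 it had 20.2, 40.9 and 50.6 CPM in Notch1-/- cells, against 26.2, 27.6 and 65.5 CPM in WT cells. Day 6 lay below day 0 in every library, and the genotypes were apart at day 6 alone. Replicate 3 was the highest day 0 library of each genotype, as it was for the summed fibroblast markers. Of the 16 fibroblast markers, 14 were called lower and 1 higher over Notch1-/- differentiation, beside 18.7% and 17.2% of all loci. Over WT differentiation 9 were called lower and 3 higher, beside 24.7% and 18.4% of all loci. Their summed CPM in WT was 887 to 3022 at day 0 and 1174 to 1653 at day 6, with overlapping ranges. The part of these markers' cells in the Itgb3 values was not tested. Its log2 change was -3.41 ± 0.40 over Notch1-/- differentiation and -2.17 ± 0.38 over WT differentiation (adjusted p = 6.83e-05 and 0.000672). These falls did not differ by a called amount (-1.23 ± 0.52, adjusted p = 0.150). The genotype difference at day 6 was -1.33 ± 0.37 (adjusted p = 0.0186), a call that ended without Notch1-/- day 6 replicate 1 or 2 or WT day 6 replicate 1 or 2 (-1.30 to -1.23, adjusted p 0.0527 to 0.0655).

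Itgav, the alpha subunit that pairs with beta 3, beta 5, beta 6 and beta 8, had 65.1, 73.0 and 66.2 CPM in Notch1-/- bodies, against 97.1, 106 and 109.6 CPM in WT bodies. Its day 0 values were 96.7, 100.4 and 151 CPM in Notch1-/- cells, against 121, 92.1 and 134 CPM in WT cells. The Notch1-/- bodies were below all other libraries. The log2 change over Notch1-/- differentiation was -0.77 ± 0.18 (adjusted p = 0.00578), against -0.15 ± 0.18 over WT differentiation (adjusted p = 0.517), and the changes did not differ by a called amount (adjusted p = 0.146). At day 6 the genotype difference was -0.61 ± 0.18 (adjusted p = 0.0237), a call that ended without Notch1-/- day 6 replicate 1 or 3 or WT day 6 replicate 2 or 3 (-0.60 to -0.57, adjusted p 0.0694 to 0.0788). Itga5, the alpha subunit of the main fibronectin receptor, had 141, 139.9 and 102 CPM in Notch1-/- bodies, against 195, 192 and 168 CPM in WT bodies. Before differentiation it had 123, 268 and 259 CPM in Notch1-/- cells, against 168, 255 and 259 CPM in WT cells. Its groups did not overlap at day 6, yet the genotype difference there was not called (-0.54 ± 0.26, adjusted p = 0.146). It was called lower over Notch1-/- differentiation (-0.76 ± 0.26, adjusted p = 0.0376). That call ended without any Notch1-/- or WT day 6 library, or without Notch1-/- day 0 replicate 2 or 3 (-0.84 to -0.60, adjusted p 0.0512 to 0.139). Notch1-/- replicate 1, the lowest day 0 library for Itga5, also had the lowest fibroblast marker sum of those libraries. In WT cells replicate 1 was lowest for Itga5, but replicate 2 for that sum. The part of these markers' cells in the Itga5 values was not tested.

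Of the other beta subunits that pair with Itgav, Itgb5 and Itgb8 were called higher over WT differentiation, and Itgb6 was scarce. Itgb8, which pairs with Itgav to activate latent TGF-beta, had 3.51, 5.81 and 5.17 CPM in Notch1-/- bodies, against 11.2, 11.5 and 7.63 CPM in WT bodies. In the day 0 libraries it had 0.446, 0.923 and 3.27 CPM in Notch1-/- cells, against 0.915, 1.53 and 0.675 CPM in WT cells. All day 6 libraries exceeded all day 0 libraries, and Notch1-/- bodies lay below WT bodies. Its log2 change was 1.64 ± 0.57 over Notch1-/- differentiation and 3.28 ± 0.60 over WT differentiation (adjusted p = 0.0379 and 0.000937). The Notch1-/- call ended without Notch1-/- day 6 replicate 2 or 3 or Notch1-/- day 0 replicate 1 or 2 (1.20 to 1.61, adjusted p 0.0732 to 0.130). Neither the genotype difference at day 6 (-1.06 ± 0.55, adjusted p = 0.170) nor the difference of the changes (-1.63 ± 0.79, adjusted p = 0.212) was called. Itgb5, a vitronectin receptor subunit, had 132, 119 and 114 CPM in Notch1-/- bodies, against 151, 159 and 116 CPM in WT bodies. Day 0 libraries gave it 90.1, 82.4 and 102 CPM in Notch1-/- cells, against 72.7, 44.9 and 114 CPM in WT cells. It was called higher over WT differentiation (0.88 ± 0.26, adjusted p = 0.0149), a call that ended without WT day 6 replicate 2 (0.80, adjusted p = 0.0538). Itgb6, an epithelial subunit, stayed at or under 0.273 CPM in every library. It was called lower over Notch1-/- differentiation (-2.40 ± 0.80, adjusted p = 0.0337), a call that ended without any Notch1-/- day 6 library or Notch1-/- day 0 replicate 2 or 3 (-2.88 to -1.67, adjusted p 0.0504 to 0.166).

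**Figure D2:**
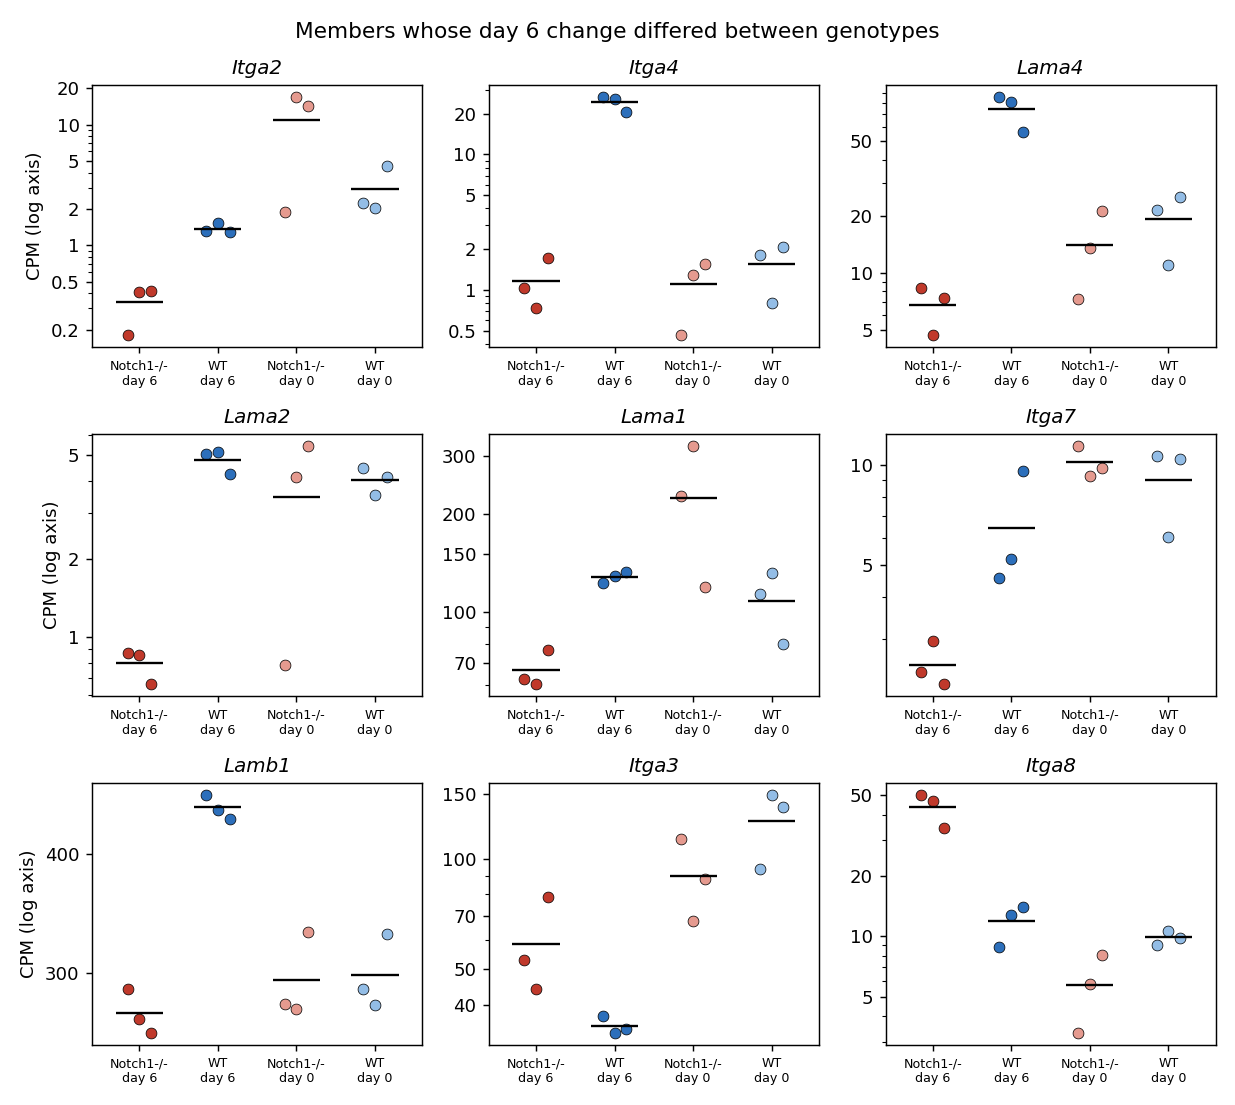
CPM (log axis) of the 9 genes whose day 6 change differed between genotypes, 1 panel each, with 1 point per library and a line at the mean of each group. Itga4 and Lama4 were high in WT bodies alone, and Itga8 in Notch1-/- bodies alone.

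Among collagen receptors, the alpha 2 gene Itga2 was scarce in bodies and fell steeply over Notch1-/- differentiation. It had 0.180, 0.414 and 0.417 CPM in Notch1-/- bodies, against 1.31, 1.54 and 1.28 CPM in WT bodies. Undifferentiated cells had it at 1.88, 17.0 and 14.2 CPM in Notch1-/- cells, against 2.24, 2.04 and 4.54 CPM in WT cells. The day 6 groups did not overlap, and at day 0 Notch1-/- replicate 1 lay below all WT libraries while replicates 2 and 3 lay above them. Notch1-/- replicate 1 also had the lowest fibroblast marker sum of the day 0 libraries, 462 CPM. The part of these markers' cells in the Itga2 values was not tested. The log2 change was -5.02 ± 0.71 over Notch1-/- differentiation (adjusted p = 0.000233), against -1.09 ± 0.60 over WT differentiation (adjusted p = 0.163), and the difference of the changes was -3.93 ± 0.88 (adjusted p = 0.0137). The genotype difference at day 6 was -2.02 ± 0.64 (adjusted p = 0.0327), a call that ended without any 1 of the 6 day 6 libraries (-2.20 to -1.72, adjusted p 0.0602 to 0.109). Its neighbour on chromosome 13, Itga1, the alpha 1 collagen receptor gene, was called in no comparison. Itga1 had 36.2, 41.6 and 44.4 CPM in Notch1-/- bodies, against 42.4, 46.9 and 45.6 CPM in WT bodies, and 28.7 to 43.5 CPM in the day 0 libraries. The approximate 95% interval of its genotype difference at day 6, taken from the SE under a normal distribution, ran from -0.51 to 0.22.

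Itga11, the alpha 11 collagen receptor gene, which is known from mesenchymal fibroblasts, fell in both genotypes. It had 2.57, 3.16 and 1.17 CPM in Notch1-/- bodies, against 3.16, 2.82 and 2.49 CPM in WT bodies. At day 0 it had 8.36, 6.03 and 19.9 CPM in Notch1-/- cells, against 32.3, 20.3 and 51.1 CPM in WT cells. Replicate 3 was the highest day 0 library of each genotype, as it was for the summed fibroblast markers given above, whose part in this result was not tested. Its log2 change was -2.31 ± 0.48 over Notch1-/- differentiation and -3.61 ± 0.51 over WT differentiation (adjusted p = 0.00278 and 0.000151). The genotype difference at day 0 was -1.59 ± 0.47 (adjusted p = 0.0491). That call ended without Notch1-/- day 6 replicate 1 or 2, any WT day 6 library, Notch1-/- day 0 replicate 1 or 2, or WT day 0 replicate 1 or 3 (-1.64 to -1.20, adjusted p 0.0524 to 0.174).

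Among receptors for VCAM-1, fibronectin and tenascin, Itga4, whose alpha 4 subunit serves mesoderm, epicardial and blood precursor cells, showed the largest genotype difference of the 31 genes. Its locus, chr2:79095581-79173276 on the plus strand of mm9, shares 51.1% of its exon length with Cerkl on the opposite strand, and its level is given by FPKM. It had 0.189, 0.139 and 0.316 FPKM in Notch1-/- bodies, against 5.59, 5.56 and 4.65 FPKM in WT bodies. Its day 0 values were 0.0707, 0.220 and 0.322 FPKM in Notch1-/- cells, against 0.353, 0.126 and 0.436 FPKM in WT cells. WT bodies were high and the other 3 groups overlapped. The deposited counts gave a genotype log2 difference of -4.37 ± 0.50 at day 6, 20.7-fold lower in Notch1-/- (adjusted p = 6.93e-05), and -0.49 ± 0.45 at day 0 (adjusted p = 0.493). The log2 change was 0.07 ± 0.45 over Notch1-/- differentiation (adjusted p = 0.916), against 3.95 ± 0.49 over WT differentiation (adjusted p = 6.52e-05), and the difference of the changes was -3.88 ± 0.65 (adjusted p = 0.00272). In limma's test on log2(FPKM + 1), a scale that understates the change of low genes, the day 6 difference was -2.37 ± 0.12 (adjusted p = 3.78e-07). The count calls held under every alternative that refitted the gene.

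Itga9, a receptor subunit for tenascin and related ligands that resembles alpha 4, rose in both genotypes. It had 30.6, 26.9 and 20.03 CPM in Notch1-/- bodies, against 38.6, 34.98 and 31.8 CPM in WT bodies. Before differentiation it had 17.7, 17.2 and 10.9 CPM in Notch1-/- cells, against 19.0, 25.8 and 19.9 CPM in WT cells. Notch1-/- lay below WT at each day without overlap, although neither genotype difference was called (-0.44 ± 0.22 at day 6, adjusted p = 0.154, and -0.50 ± 0.22 at day 0, adjusted p = 0.164). Its log2 change was 0.76 ± 0.22 over Notch1-/- differentiation (adjusted p = 0.0177), a call that ended without Notch1-/- day 6 replicate 1 or 2 or Notch1-/- day 0 replicate 3 (0.55 to 0.72, adjusted p 0.0547 to 0.0813). It was 0.70 ± 0.22 over WT differentiation (adjusted p = 0.0212), a call that ended without WT day 6 replicate 1 or 2 or WT day 0 replicate 1 or 3 (0.62 to 0.72, adjusted p 0.0541 to 0.0756).

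Leukocyte integrins were low throughout. Itgal, the alpha subunit of LFA-1, had 2.15, 2.66 and 3.05 CPM in Notch1-/- bodies, against 1.18, 1.12 and 1.07 CPM in WT bodies. In the day 0 libraries it had 6.19, 6.10 and 7.55 CPM in Notch1-/- cells, against 4.77, 3.03 and 6.42 CPM in WT cells. Its log2 change was -1.33 ± 0.28 over Notch1-/- differentiation and -2.08 ± 0.28 over WT differentiation (adjusted p = 0.00268 and 0.000128). At day 6 it was higher in Notch1-/- by 1.22 ± 0.28 (adjusted p = 0.00611), with no overlap. At day 0 the genotypes overlapped for Itgal and the difference was not called (0.48 ± 0.27, adjusted p = 0.265). Summed CPM of the 5 of 10 leukocyte markers measured was 21.4 to 43.4 in Notch1-/- bodies, against 12.8 to 16.9 in WT bodies. For day 0 it was 129 to 268 in Notch1-/- cells, against 82.6 to 110 in WT cells. Of 4 tested, 2 were called higher in Notch1-/- at day 6 and 3 at day 0, and none lower. Of all loci, 13.7% and 3.71% were called higher there. Ptprc, the pan-leukocyte marker, was at 0 in all WT bodies, and the part of such cells in the Itgal values was not tested.

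Itgam, the alpha subunit of the macrophage receptor Mac-1, went against Itgal at day 6. It had 0.504, 0.546 and 0.826 CPM in Notch1-/- bodies, against 1.76, 1.29 and 1.84 CPM in WT bodies. Day 0 libraries gave it 0.932, 2.93 and 3.94 CPM in Notch1-/- cells, against 6.67, 2.85 and 4.83 CPM in WT cells. The genotypes did not overlap at day 6 and overlapped at day 0. The genotype difference at day 6 was -1.38 ± 0.47 (adjusted p = 0.0444), a call that ended without any day 6 library, Notch1-/- day 0 replicate 2 or WT day 0 replicate 3 (-1.62 to -1.24, adjusted p 0.0531 to 0.131). Itgam fell over Notch1-/- differentiation (-2.05 ± 0.48, adjusted p = 0.00536) and over WT differentiation (-1.55 ± 0.46, adjusted p = 0.0164), the WT call ending without WT day 6 replicate 2 or WT day 0 replicate 1 (-1.40 to -1.23, adjusted p 0.0597 to 0.0708). Itgb2, the beta subunit both share, was called in no comparison, with 0.828, 1.40 and 0.544 CPM in Notch1-/- bodies, against 0.869, 0.931 and 1.36 CPM in WT bodies. Itgax, the neighbour of Itgam on chromosome 7 and a dendritic cell marker, was at or under 0.170 CPM everywhere. It was called lower over Notch1-/- differentiation (adjusted p = 0.0246), a call that ended without Notch1-/- day 6 replicate 1 or 2 or Notch1-/- day 0 replicate 2 or 3 (adjusted p 0.0517 to 0.0880). Itgae, which encodes the E-cadherin receptor of intraepithelial lymphocytes and shares 68.0% of its exon length with opposite-strand loci, had 0.257 to 0.305 FPKM in Notch1-/- bodies, against 0.288 to 0.335 FPKM in WT bodies. It was called in no comparison on counts. In limma's test on log2(FPKM + 1) it was lower over WT differentiation (-0.32 ± 0.11, adjusted p = 0.0395).

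**Figure D3:**
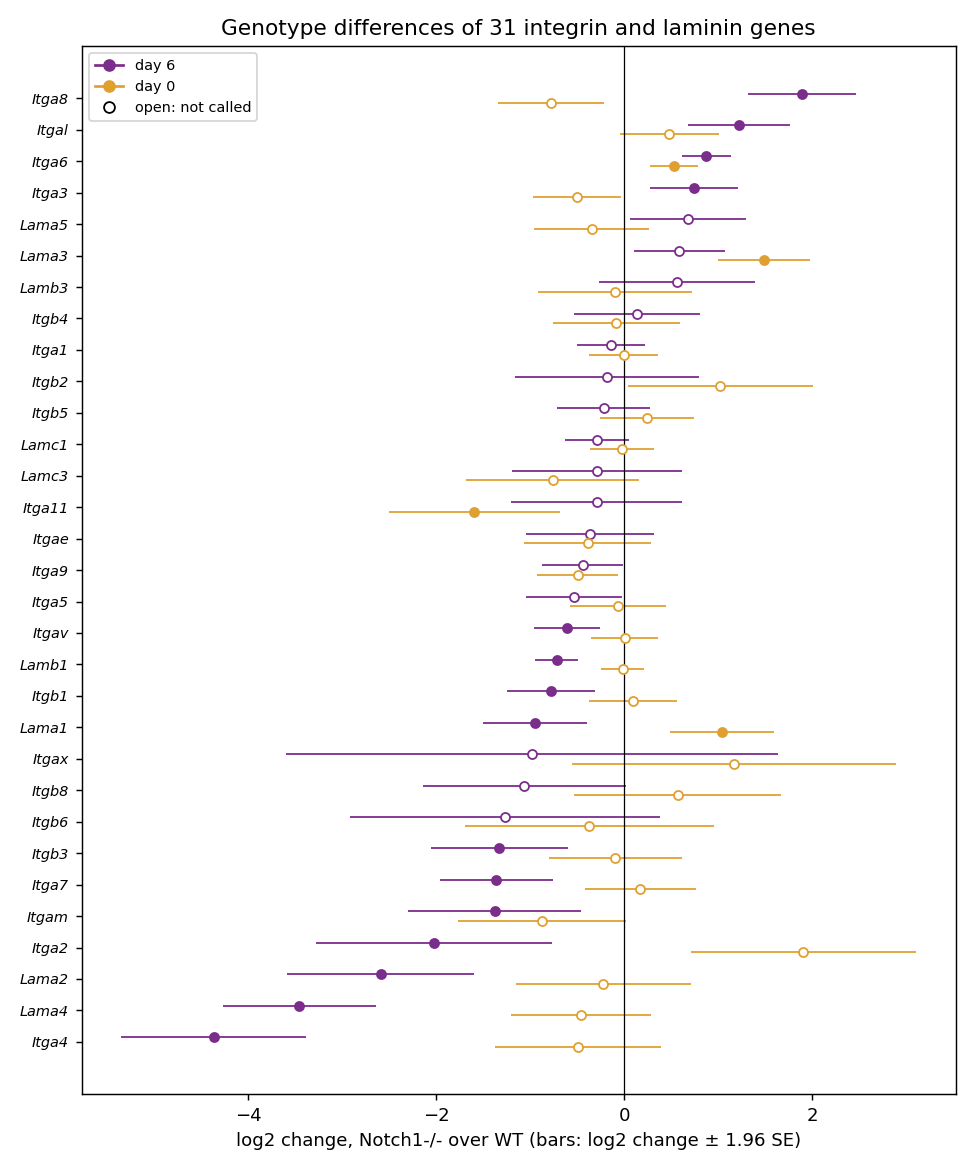
Log2 difference between Notch1-/- and WT (horizontal axis) at day 6 (purple) and day 0 (orange) for the 31 genes, ordered by the day 6 value. Bars are approximate 95% intervals, taken from the SE under a normal distribution. They are narrower than those of the test, so a bar clear of 0 need not be a call. Filled points passed the test. Most called genes lie left of 0 at day 6, from Itga4 at -4.37 to Itgav at -0.61, and only Itga6 was called on the right at both days.

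Among laminin alpha chains, Lama4, the chain of laminins made by endothelium and mesenchyme, was high in WT bodies alone. Its locus is chr10:38684998-38829994 on the plus strand of mm9. It had 8.29, 4.68 and 7.40 CPM in Notch1-/- bodies, against 86.3, 81.4 and 56.2 CPM in WT bodies. Undifferentiated cells had it at 7.30, 13.6 and 21.4 CPM in Notch1-/- cells, against 21.6, 11.002 and 25.5 CPM in WT cells. The genotypes were far apart at day 6 and overlapped at day 0. The genotype log2 difference at day 6 was -3.46 ± 0.42 (adjusted p = 9.85e-05). Over WT differentiation it rose by 1.95 ± 0.39 (adjusted p = 0.00172), and the difference of the changes was -3.0 ± 0.55 (adjusted p = 0.00459). Over Notch1-/- differentiation it was called lower (-1.05 ± 0.38, adjusted p = 0.0482), which makes it the only gene called in opposite directions in the 2 genotypes. That fall ended without any day 6 library, Notch1-/- day 0 replicate 2 or 3, or WT day 0 replicate 1 or 3 (-1.21 to -0.64, adjusted p 0.0501 to 0.228).

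Cell type markers moved with Lama4 and Itga4 at day 6. Summed CPM of 7 of 10 endothelial markers was 146 to 315 in Notch1-/- bodies, against 367 to 576 in WT bodies. That of 6 of 10 early blood and megakaryocyte markers was 14.4 to 20.8 in Notch1-/- bodies, against 98.8 to 200.3 in WT bodies. That of 12 of 16 extraembryonic endoderm markers was 125 to 179 in Notch1-/- bodies, against 498 to 588 in WT bodies. The fibroblast marker sum given above was lower in Notch1-/- bodies as well. It includes Col1a1, at 28.5 ± 6.2 CPM in Notch1-/- bodies, against 735 ± 218 CPM in WT bodies. Of the 16 fibroblast markers, 7 were called lower, 1 higher and 8 not called, beside 14.4% of all loci lower and 13.7% higher. None of the 3 Notch1-/- bodies overlapped a WT body for the sums of these 4 lists. The part of these cell types in the values of Itga4, Lama4 and the other laminin chains was not tested.

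Lama1, the alpha chain of laminin-111 and the first made in the embryo, fell over Notch1-/- differentiation and not by a called amount over WT differentiation. It had 62.6, 60.4 and 76.4 CPM in Notch1-/- bodies, against 123, 129 and 132 CPM in WT bodies. At day 0 it had 227, 322 and 119 CPM in Notch1-/- cells, against 113, 132 and 80.2 CPM in WT cells. Notch1-/- was lower without overlap at day 6, as were the extraembryonic endoderm markers, and at day 0 only replicates 1 and 2 of Notch1-/- lay above the WT range. The log2 change was -1.74 ± 0.29 over Notch1-/- differentiation (adjusted p = 0.000633), against 0.24 ± 0.28 over WT differentiation (adjusted p = 0.512), and the difference of the changes was -1.99 ± 0.40 (adjusted p = 0.00768). The genotype difference was -0.95 ± 0.28 at day 6 (adjusted p = 0.0245) and 1.04 ± 0.28 at day 0 (adjusted p = 0.0373). The day 6 call ended without Notch1-/- day 6 replicate 1 or 2 or any WT day 6 library (-0.98 to -0.89, adjusted p 0.0576 to 0.0846). The day 0 call ended without any WT day 6 library, Notch1-/- day 0 replicate 2, or WT day 0 replicate 1 or 3 (0.68 to 1.07, adjusted p 0.0521 to 0.169).

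Lama2, the chain of muscle laminin, had 0.873, 0.858 and 0.663 CPM in Notch1-/- bodies, against 5.07, 5.15 and 4.22 CPM in WT bodies. Its day 0 values were 0.784, 4.14 and 5.44 CPM in Notch1-/- cells, against 4.46, 3.51 and 4.12 CPM in WT cells. The day 6 groups were apart, and Notch1-/- day 0 replicate 1 was as low as the Notch1-/- bodies. That library also had the lowest fibroblast marker sum of the day 0 libraries, 462 CPM. The part of these markers' cells in the Lama2 values was not tested. At day 6 the genotype difference was -2.59 ± 0.51 (adjusted p = 0.00252), and the change over Notch1-/- differentiation was -2.11 ± 0.50 (adjusted p = 0.00596). The difference of the changes was -2.37 ± 0.69 (adjusted p = 0.0427), a call that ended without any 1 library other than Notch1-/- day 0 replicate 1 (-2.46 to -1.91, adjusted p 0.0599 to 0.103). It also ended in the fit with the replicate number as a block (-2.27, adjusted p = 0.0573). The muscle marker sum given above was higher in Notch1-/- bodies, opposite to Lama2, and the part of muscle cells in the Lama2 values was not tested.

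Lama3, the alpha chain of epithelial laminin-332, was the laminin with the firmest genotype difference at day 0. It had 4.63, 5.67 and 5.25 CPM in Notch1-/- bodies, against 4.31, 3.15 and 2.92 CPM in WT bodies. Before differentiation it had 17.5, 15.3 and 25.0 CPM in Notch1-/- cells, against 6.64, 5.51 and 8.497 CPM in WT cells. Notch1-/- lay above WT without overlap at both days. The genotype difference was 1.48 ± 0.25 at day 0 (adjusted p = 0.00288) and 0.58 ± 0.25 at day 6 (adjusted p = 0.0961). Its log2 change was -1.89 ± 0.25 over Notch1-/- differentiation and -0.99 ± 0.25 over WT differentiation (adjusted p = 0.000158 and 0.00630). Lamb3, the beta chain of laminin-332, had 6.56, 4.21 and 3.19 CPM in Notch1-/- bodies, against 3.04, 2.83 and 3.59 CPM in WT bodies. In the day 0 libraries it had 6.55, 7.36 and 6.69 CPM in Notch1-/- cells, against 13.02, 6.03 and 2.99 CPM in WT cells, and no genotype difference was called. It was called lower over WT differentiation (-1.22 ± 0.43, adjusted p = 0.0345), a call that ended without any WT day 6 library or WT day 0 replicate 1 (-1.31 to -0.52, adjusted p 0.0640 to 0.240).

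Lama5, the alpha chain of laminin-511 that stem cells attach to, was called in no comparison on counts. It shares 57.6% of its exon length with the opposite-strand locus of Osbpl2 and Adrm1 and is given by FPKM. It had 34.3, 32.9 and 29.8 FPKM in Notch1-/- bodies, against 22.4, 18.8 and 23.5 FPKM in WT bodies. Day 0 libraries gave it 48.3, 19.5 and 23.1 FPKM in Notch1-/- cells, against 55.7, 26.7 and 31.7 FPKM in WT cells. The day 6 groups did not overlap, with a log2(FPKM + 1) difference of 0.57 ± 0.32 in limma's test (adjusted p = 0.204).

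Per length, the mix of alpha chains differed at day 6. Lama5 made up 85.3% ± 2.4 of the summed FPKM of the 5 alpha chains in Notch1-/- bodies, against 55.9% ± 4.1 in WT bodies (SD, n = 3 each). Lama1 made up 11.01% ± 2.0 in Notch1-/- bodies, against 21.8% ± 1.6 in WT bodies, and Lama4 1.95% ± 0.53 in Notch1-/- bodies, against 20.5% ± 4.3 in WT bodies. At day 0 Lama5 made up 62.3% ± 13 in Notch1-/- cells, against 77.6% ± 4.7 in WT cells, and the ranges of the 2 genotypes overlapped. In counts per kilobase of unshared exon length, Lama5 made up 76.5% ± 3.4 in Notch1-/- bodies, against 42.7% ± 4.1 in WT bodies. At day 0 that unit gave Lama5 44.5% ± 14 in Notch1-/- cells, against 65.0% ± 7.3 in WT cells, and Lama1 47.0% ± 15 in Notch1-/- cells, against 27.3% ± 8.2 in WT cells, so that the mean of Lama1 exceeded that of Lama5 in Notch1-/- cells in this unit only. The shares are descriptions and were not tested.

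**Figure D4:**
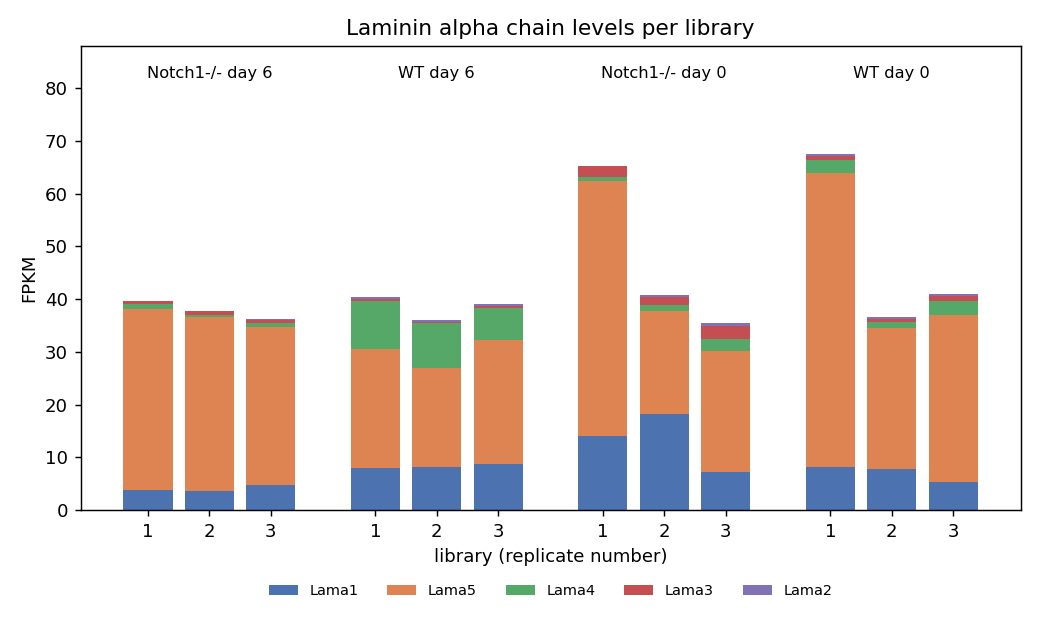
FPKM of the 5 laminin alpha chains stacked per library, with libraries grouped as Notch1-/- day 6, WT day 6, Notch1-/- day 0 and WT day 0. Lama4 (green) is visible as a broad band in WT bodies alone, and day 0 replicate 1 of each genotype stands above the other libraries through Lama5.

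Among beta and gamma chains, Lamb1, the beta chain of laminin-111, laminin-411 and laminin-511, followed Lama4 with a smaller change. It had 288, 268 and 259 CPM in Notch1-/- bodies, against 463, 446 and 436 CPM in WT bodies. Undifferentiated cells had it at 278, 275 and 331 CPM in Notch1-/- cells, against 288, 277 and 329 CPM in WT cells. WT bodies stood above all other libraries, and the endoderm, endothelial and fibroblast marker sums were higher in WT bodies as well. The genotype difference at day 6 was -0.72 ± 0.12 (adjusted p = 0.000683) and that at day 0 was -0.02 ± 0.11 (adjusted p = 0.933). The log2 change was -0.12 ± 0.11 over Notch1-/- differentiation (adjusted p = 0.461), against 0.59 ± 0.12 over WT differentiation (adjusted p = 0.00148). The difference of the changes was -0.70 ± 0.16 (adjusted p = 0.0156), a call that ended without Notch1-/- day 6 replicate 3 or WT day 6 replicate 1 (-0.68 to -0.67, adjusted p 0.0504 to 0.0514). Lamc1, the gamma chain of the same trimers, was called in no comparison. It had 388, 419 and 473 CPM in Notch1-/- bodies, against 561, 532 and 471 CPM in WT bodies. The approximate 95% interval of the log2 difference, taken from the SE under a normal distribution, ran from -0.63 to 0.05. Lamc3, a gamma chain of low level, was called in no comparison and had 0.611 to 1.73 CPM in Notch1-/- bodies, against 1.26 to 1.95 CPM in WT bodies.

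By mean FPKM, Lamc1, Lama5 and Lamb1 were the most abundant of the 9 laminin chains with a locus of their own in all groups. In Notch1-/- bodies they had 34.1 ± 3.6, 32.3 ± 2.3 and 28.8 ± 1.8 FPKM, and neighbours in this order overlapped in their library values. In WT bodies Lamb1 had 49.6 ± 1.6, Lamc1 43.2 ± 3.3 and Lama5 21.6 ± 2.5 FPKM (SD, n = 3). Lama1 and Lama4 followed at 8.38 ± 0.41 and 7.90 ± 1.6 FPKM, with overlapping library values.

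Partners of laminin in the basement membrane were compared through a list of 18 genes. Between genotypes at day 6, 1 was called higher and 9 lower in Notch1-/- bodies, with a median log2 difference of -0.93, beside 0.01 over all loci and 13.7% of all loci called higher and 14.4% lower. Col4a1, a chain of the type IV collagen network, averaged 163 ± 27 CPM in Notch1-/- bodies, against 587 ± 5.5 CPM in WT bodies (log2 -1.85 ± 0.20, adjusted p = 5.6e-05). Col4a2, its partner chain, averaged 75.8 ± 12 CPM in Notch1-/- bodies, against 315 ± 6.3 CPM in WT bodies (adjusted p = 9.05e-05). Nid1, which links laminin to type IV collagen, averaged 69.6 ± 3.5 CPM in Notch1-/- bodies, against 286 ± 32 CPM in WT bodies (log2 -2.04 ± 0.24, adjusted p = 8.66e-05). The extraembryonic endoderm markers were lower in Notch1-/- bodies as given above, and their part in these values was not tested. Over Notch1-/- differentiation 5 of the 18 were called higher and 5 lower, beside 35.9% of all loci called, and over WT differentiation 7 higher and 3 lower, beside 43.1%. At day 0, where 9.56% of all loci were called, 3 were called lower in Notch1-/- cells: Fras1 and Frem2, of the complex at epithelial basement membranes, and Ntn4, a netrin that binds laminin. Frem2 averaged 15.5 ± 4.2 CPM in Notch1-/- cells at day 0, against 59.1 ± 30 CPM in WT cells, and 159 ± 22 CPM in Notch1-/- bodies at day 6, against 71.9 ± 6.4 CPM in WT bodies.

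Of other integrin ligands, 19 of 24 were tested. Between genotypes at day 6, 2 were called higher and 12 lower in Notch1-/- bodies, with a median log2 difference of -1.48, beside 28.1% of all loci called. Col1a1, a chain of type I collagen and also a fibroblast marker, averaged 28.5 ± 6.2 CPM in Notch1-/- bodies, against 735 ± 218 CPM in WT bodies (adjusted p = 6.14e-05). Cdh1, E-cadherin and ligand of the Itgae receptor, averaged 695 ± 121 CPM in Notch1-/- bodies, against 265 ± 47 CPM in WT bodies (log2 1.39 ± 0.16, adjusted p = 6.05e-05). Vcam1, a ligand of the Itga4 receptor, averaged 0.221 ± 0.10 CPM in Notch1-/- bodies at day 6, against 37.8 ± 23 CPM in Notch1-/- cells at day 0 (log2 -7.40 ± 0.71, adjusted p = 1.84e-05). Tnc, the tenascin ligand of the Itga9 receptor, averaged 8.62 ± 1.2 CPM in Notch1-/- bodies at day 6, against 682 ± 424 CPM in Notch1-/- cells at day 0 (adjusted p = 1.47e-05). In WT, Vcam1 averaged 2.38 ± 0.47 CPM at day 6, against 33.0 ± 20 CPM at day 0, and Tnc averaged 62.3 ± 12 CPM at day 6, against 729 ± 422 CPM at day 0. Fibroblast markers, given above, were lower with them over Notch1-/- differentiation, and their part in these values was not tested. Over Notch1-/- differentiation 2 of the 19 were called higher and 11 lower, beside 35.9% of all loci called, and over WT differentiation 4 higher and 7 lower, beside 43.1%.

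Inside the cell, integrin tails bind adaptors that reach actin, and 16 of 25 listed adaptors were tested. Between genotypes at day 6, 1 was called higher and 6 lower in Notch1-/- bodies, beside 28.1% of all loci called. Zyx, zyxin of mature focal adhesions, averaged 6.65 ± 0.32 CPM in Notch1-/- bodies, against 1.53 ± 0.25 CPM in WT bodies (adjusted p = 0.000369). Parva, which joins integrin-linked kinase to actin, averaged 22.9 ± 4.5 CPM in Notch1-/- bodies, against 144 ± 7.8 CPM in WT bodies (adjusted p = 0.000285). Tns1, a tensin that binds beta tails, averaged 13.8 ± 2.5 CPM in Notch1-/- bodies, against 56.8 ± 15 CPM in WT bodies (adjusted p = 7.48e-05). Over Notch1-/- differentiation 4 of the 16 were called higher and 6 lower, beside 35.9% of all loci called. Over WT differentiation 3 were called higher and 2 lower, a share below the 43.1% of all loci. At day 0 Tns1 alone was called, lower in Notch1-/- cells (adjusted p = 0.0406). Of 6 laminin receptors that are no integrins, 3 were tested, and Sdc4, a syndecan that works beside integrins, fell in both genotypes and was higher in Notch1-/- cells at day 0 (log2 1.08 ± 0.24, adjusted p = 0.0143). It averaged 319 ± 126 CPM in Notch1-/- cells at day 0, against 151 ± 27 CPM in WT cells.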

How the data were processed

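Poly(A) RNA was isolated with Trizol and read in pairs of 100 bases on a HiSeq2000, as the labels' protocols state. Build mm9 and the tools DESeq, HTSeq 0.5.4p3, Cufflinks 2.1.1 and TopHat2 2.0.8 appear in the submitters' processing notes, with no role or order given there, and the strand setting of the counting is not given in the sources used here. Deposited were the authors' counts for each locus of their merged transcript models, not normalized, the authors' FPKM for these loci, scaled to length and library size, and the models' exons.

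Loci carry numbers without symbols. Genes were assigned by runs of intron, exon and intron lengths shared with GENCODE vM21 on the same chromosome and strand, with no conversion of coordinates. This gave 1 gene to 15879 loci, several to 1451 and none to 22709. In a check that looked loci up on a wrong chromosome, 3 were linked. Counts of all 12 libraries were fitted with edgeR 4.0.16 in R 4.3.3 (glmQLFit, glmQLFTest, TMM, filterByExpr, 1 mean per group), with p-values adjusted over 23991 loci. The steps were tested on simulated data. FPKM was tested with limma 3.58.1 on log2(FPKM + 1), on loci of at least 0.5 FPKM in at least 3 libraries. Members with a locus of their own that shares 50% or more of its exon length are given by FPKM. Genes of the related lists are given by CPM whatever their sharing. Ilk, a listed adaptor, had no counts in any library, and the reason was not tested.

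All members were described, and of each list of related genes the up to 3 called genes with the smallest p per contrast could be named. Members and lists were chosen with earlier results of these data known. Alternatives were RLE and upper quartile scaling, no filter, DESeq2 1.42.0, only the groups of a contrast, a replicate block, 3 FPKM tests, leaving out each library, and counting calls without the genes whose loci share 50% or more of their exon length. Same-numbered libraries deviated together between the day 0 groups (r over 0.1 in all 3 pairs, 0.165 to 0.398), although the labels name no shared source. The main edgeR fit was unpaired in every contrast. The replicate block, an alternative, changed no day 0 genotype call. In the other contrasts not every pair reached 0.1.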

Additional observations from a re-analysis of the deposited data

Results flagged for a closer look

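The difference between the day 6 changes of the 2 genotypes, Notch1-/- minus WT, passed edgeR's quasi-likelihood test for 9 integrin and laminin genes and for 9 of the related genes named. On the log2 scale it was -3.93 for Itga2, -3.88 for Itga4, -1.53 for Itga7, -1.99 for Lama1, -2.37 for Lama2, -3.0 for Lama4 and -0.70 for Lamb1. It was 1.25 for Itga3 and 2.67 for Itga8. Among partners in the basement membrane it was -2.69 for Nid1, -1.75 for Col4a1 and 3.08 for Frem2. Among other integrin ligands it was -6.82 for Fgb, -6.33 for Fga and -0.98 for Egfl7, and among adaptors it was 2.89 for Zyx, -1.16 for Pxn and -2.40 for Parva. Over the whole lists, 2 more positive and 5 more negative changes were called among 18 partners, 1 and 8 among 19 ligands, and 1 and 5 among 16 adaptors. Of all loci, 6.36% were called more positive and 4.92% more negative. The Lama2 call ended in the fit with a replicate block (adjusted p = 0.0573).

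Fgb and Fga encode chains of fibrinogen, a ligand of the integrins with beta 3. Both were near 0 in all libraries but WT bodies, where Fga stayed low as well, so their log2 differences rest on few counts. Fgb averaged 0.0570 ± 0.036 CPM in Notch1-/- bodies, against 2.15 ± 0.37 CPM in WT bodies, and Fga averaged 0.00496 ± 0.0086 CPM in Notch1-/- bodies, against 0.224 ± 0.062 CPM in WT bodies (SD, n = 3 each). Pxn, the adaptor paxillin, averaged 59.8 ± 2.4 CPM in Notch1-/- bodies, against 107 ± 9.4 CPM in WT bodies. Egfl7, a secreted endothelial ligand of Itgav with beta 3, averaged 53.2 ± 5.8 CPM in Notch1-/- bodies, against 105 ± 9.75 CPM in WT bodies.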

How the results depend on the processing

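Of 61 calls of single genes, 29 held under every alternative that refitted the gene, and none reversed. Tests on FPKM covered 24 of the 31 genes after the filter. Genes called lower over Notch1-/- differentiation numbered 16 on counts, 9 with log2(FPKM + 1), 9 with log2(FPKM + 0.1) and 8 with log2(FPKM + 1) and no filter. More negative changes in Notch1-/- numbered 7 on counts and 4 in each of the 3 FPKM settings, and more positive ones 2 on counts and 1 with FPKM and no filter. At day 6, genes higher in Notch1-/- numbered 4 on counts and 2 with log2(FPKM + 1), with or without the filter, and genes lower numbered 11 on counts and 6 with FPKM and no filter. At day 0 the 1 gene lower in Notch1-/-, Itga11, became 0 under RLE, upper quartile scaling, a fit of the day 0 groups alone and FPKM with no filter, and the 3 genes higher became 1 in the fit of the day 0 groups alone. The cause was not tested.

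Without 1 library, counts of higher and lower genes ranged from 1 to 4 and 11 to 17 over Notch1-/- differentiation, 4 to 7 and 6 to 11 over WT differentiation, 3 to 5 and 5 to 12 at day 6, 1 to 5 and 0 to 2 at day 0, and 1 to 3 and 4 to 10 for the difference of changes. With a replicate block, 4 and 16 were called over Notch1-/- differentiation and 6 and 11 over WT differentiation. The replicate block ended the call on the difference of changes of Lama2 and added 5 calls: Lama5 at day 6 (adjusted p = 0.0413) and over WT differentiation (0.0321), Itgb4 and Itgb6 over WT differentiation (0.0363 and 0.0301) and Lamc3 over Notch1-/- differentiation (0.0499). Over all groups, 12 of 18 same-number pairs had r over 0.1 (from -0.03 to 0.40). Upper quartile scaling moved the median of all loci by -0.16 in both day contrasts, where 37.1% of Notch1-/- calls were higher, against 47.8% under TMM, and 33.0% of WT calls, against 42.7%. Itgax and Itgb6, at or under 0.170 and 0.273 CPM in every library, rest on few counts.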
